A study of Mus musculus with 8 samples.

Results

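Macrophage identity and polarization genes were examined in mouse breast tumors as a set of 9 genes, of 10 chosen by name, out of 54532 genes in the count table. The set held Csf1r and Adgre1, which mark the lineage, Mertk and Trem2, receptors of phagocytic and lipid-handling macrophages, Spp1, which encodes the secreted protein osteopontin, and the polarization genes Nos2, Mrc1, Chil3 and Retnla. Of the 9 genes, 8 had enough counts to be tested. None passed both thresholds in edgeR (beside 1.06% of all tested genes) in the comparison of mAb-DXd/IMQ tumors with saline tumors. Mrc1 came closest, with a level 2.58-fold lower in mAb-DXd/IMQ tumors and no overlap between the groups. It passed in 3 of 20 alternative settings. These were DESeq2 (beside 4.25% of all genes), edgeR without a filter on low counts (beside 1.14%) and the fit without saline tumor 1. That fit was 1 of 8 that each left out 1 tumor. Chil3 differed to a similar extent in the opposite direction at a very low level.

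The tumors were grown from 4T1, a mouse triple-negative breast cancer line that carried firefly luciferase in this study, placed under the skin of immunocompetent female BALB/cJ mice that were 6 weeks old. Each of the 2 groups had 4 tumors. One received saline (the treatment label reads PBS control), and the other received mAb-DXd/IMQ (HumCD276-Dxd/IMQ in the labels) into the tail vein in 5 courses, each of 16 mg/kg and 4 days apart. mAb-DXd/IMQ is a humanized antibody against CD276 that carries the topoisomerase inhibitor DXd and the imidazoquinoline IMQ, an agonist of toll-like receptors of the innate immune system. Tumors were taken at the endpoint, so the RNA came from 1 late time and from the tissue left after treatment, with tumor cells, stroma and immune cells together. In such bulk RNA, fewer cells of a type and less RNA per cell cannot be told apart.

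Many macrophages in tumors arise from monocytes, and most depend on signaling through the CSF1 receptor for survival. In culture, interferon gamma and bacterial products drive an M1-like state with nitric oxide synthesis from arginine by NOS2, whereas interleukin-4 and interleukin-13 drive an M2-like state in which the mannose receptor, Ym1 and FIZZ1 are made. Macrophages in tumors usually carry features of both, and many also express Trem2 and Spp1.

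Total counts per tumor ranged from 34591912 to 69582375, and 3 counts corresponded to 0.0431 to 0.0867 CPM (counts scaled by library size), a floor for counting error only. The labels give no sequencing batch, and they do not state whether each tumor came from its own mouse, so p-values measure the spread among these 8 tumors. edgeR's quasi-likelihood test with Benjamini-Hochberg adjustment was applied to 18511 genes at an FDR of 0.05 and an absolute log2 fold change of 0.58, and 1.06% of genes passed both, 96 lower (0.519% of genes) and 101 higher in mAb-DXd/IMQ tumors. With upper-quartile scaling the split was 73 lower and 145 higher. Epithelial tumor markers were abundant in both groups, with summed levels of Epcam, Krt8, Krt18 and Krt14 from 1493 to 1927 CPM in the saline group and from 1602 to 2768 CPM after mAb-DXd/IMQ. Tumors are numbered 1 to 4 within each group, and the same number does not pair tumors.

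The sequences upstream of Mrc1, Chil3 and Retnla are shown because these 3 genes belong to the same interleukin-4 program in textbook macrophages. Here Mrc1 was lower and Chil3 higher in mAb-DXd/IMQ tumors, neither past the thresholds in edgeR, and Retnla was not tested. Any link between the sequences and these values was not tested. Each run is the 250 bases before the transcription start in RefSeq on GRCm38.p6, written 5′ to 3′ on the strand of the gene. The runs are at chr2:14229164-14229413 on the plus strand for Mrc1, chr3:106167565-106167814 on the minus strand for Chil3 and chr16:48842359-48842608 on the plus strand for Retnla. For Mrc1 and Retnla the gene model of the count table starts earlier than the RefSeq start, so the last bases of these runs lie inside it. Capitals mark matches on either strand to GAGGAA, the core recognized by the macrophage factor PU.1, to TTCNNNNGAA, the spacing recognized by STAT6, to TATAAA, and to GGGNNNNNCC, an NF-kB type pattern.
Mrc1: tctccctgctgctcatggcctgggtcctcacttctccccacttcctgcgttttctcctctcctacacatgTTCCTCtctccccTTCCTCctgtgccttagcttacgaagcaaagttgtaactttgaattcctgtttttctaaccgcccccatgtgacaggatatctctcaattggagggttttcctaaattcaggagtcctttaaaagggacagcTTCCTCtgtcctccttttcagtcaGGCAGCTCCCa
Chil3: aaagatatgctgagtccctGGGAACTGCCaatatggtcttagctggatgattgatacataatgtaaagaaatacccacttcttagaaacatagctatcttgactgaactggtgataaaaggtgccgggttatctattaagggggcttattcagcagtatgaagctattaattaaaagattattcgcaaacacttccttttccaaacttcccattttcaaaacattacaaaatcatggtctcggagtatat
Retnla: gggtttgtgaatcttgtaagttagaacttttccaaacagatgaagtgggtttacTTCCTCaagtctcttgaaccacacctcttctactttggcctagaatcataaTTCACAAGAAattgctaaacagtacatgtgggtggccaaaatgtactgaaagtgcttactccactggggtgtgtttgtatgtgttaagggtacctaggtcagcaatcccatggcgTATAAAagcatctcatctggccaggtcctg

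Upstream sequence was matched for 6 of the 9 genes (Mertk, Trem2, Spp1, Mrc1, Chil3 and Retnla). Spp1 had a further region, which held no match. A gene was counted if any of its regions matched, whereas the shares over all regions count each region. GAGGAA was found upstream of 4 of the 6 genes and in 23.3% of 32851 upstream regions of the same length, and Mrc1 held it 3 times, at 180, 167 and 35 bases before the start. TTCNNNNGAA was found upstream of Retnla alone among the 6 and in 5.85% of all regions. TATAAA was found upstream of Retnla and Spp1 and in 12.4% of all regions. GGGNNNNNCC was found upstream of 3 of the 6 genes, Mrc1, Chil3 and Mertk, and in 45.8% of all regions. No match of one pattern overlapped a match of another in the 3 sequences shown. The GGGNNNNNCC match of Mrc1 and the TATAAA match of Retnla lie inside the gene models of the count table. A match is a run of letters and was not tested for binding.

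Compared per gene length, as CPM divided by the length of the gene model in kilobases (RPKM), the 9 genes covered a very wide range. Spp1 stood first in saline tumors at 2517 ± 302 RPKM (SD, n = 4), and by CPM it ranked 5th of all 54532 genes. Csf1r followed at 59.0 ± 33.3 RPKM, then Mrc1 at 31.0 ± 18, Nos2 at 22.5 ± 21.4, Adgre1 at 20.3 ± 11.1, Trem2 at 9.42 ± 4.72 and Mertk at 4.08 ± 2.69 RPKM. Chil3 and Retnla were at 0.178 ± 0.082 and 0.172 ± 0.113 RPKM. In saline tumors, the ranges of neighbors in this order overlapped at every step except from Spp1 to Csf1r and from Mertk to Chil3. In mAb-DXd/IMQ tumors the order differed in the middle, where Adgre1, Mrc1, Nos2 and Trem2 followed Csf1r at 12.9 ± 3.11, 12 ± 0.71, 11.1 ± 2.52 and 9.97 ± 1.69 RPKM with overlapping ranges. These 4 genes therefore could not be ordered there beyond their spread.

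**Figure D1:**
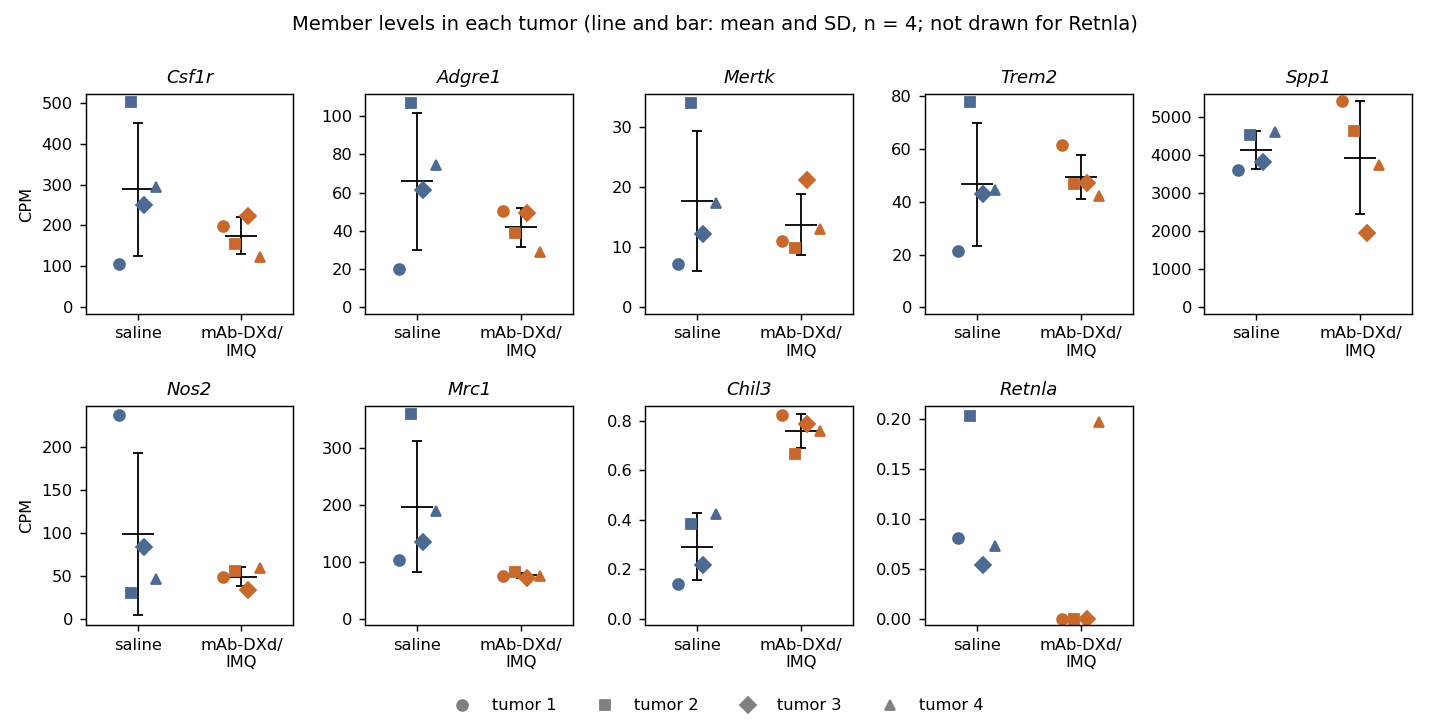
Level of each of the 9 genes in CPM (linear axes) in each saline tumor (blue) and each mAb-DXd/IMQ tumor (orange), with the tumor number given by the marker shape and the mean and SD of 4 tumors in black, which are not drawn for Retnla. Mrc1 and Chil3 are the 2 genes among those tested whose groups do not overlap, and for most genes the saline tumors spread farther than the mAb-DXd/IMQ tumors.

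Csf1r (ENSMUSG00000024621, GRCm38 chr18:61105572-61132149) encodes the receptor tyrosine kinase for CSF1 and interleukin-34. Its levels in saline tumors 1 to 4 were 107, 501, 251 and 294 CPM, and in mAb-DXd/IMQ tumors 1 to 4 they were 199, 156, 223 and 123 CPM. Saline tumor 1 was the lowest of all 8 tumors and saline tumor 2 the highest, so the mAb-DXd/IMQ group lay inside the saline range. The log2 fold change of mAb-DXd/IMQ over saline was -0.72 ± 0.37 (SE), with a 95% interval of -1.52 to 0.09 and an adjusted p of 0.318. Its value was -0.31 without saline tumor 2. Exons of Csf1r overlap the opposite-strand gene Hmgxb3 over 873 bases, and strandedness is not given in the sources used here, although Hmgxb3 had 13108 counts in all tumors against 93090 for Csf1r.

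Adgre1 (ENSMUSG00000004730, chr17:57358691-57483527) encodes the adhesion receptor detected by the F4/80 antibody. It was measured at 20.3, 107, 61.4 and 74.6 CPM in saline tumors and at 50.5, 38.9, 49.1 and 28.8 CPM in mAb-DXd/IMQ tumors. The order of the saline tumors was the same as for Csf1r, and the groups overlapped. Between groups, the log2 fold change was -0.65 ± 0.38 (SE; 95% interval -1.50 to 0.19; adjusted p = 0.387), and it was -0.32 without saline tumor 2 and -0.96 without saline tumor 1.

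Mertk (ENSMUSG00000014361, chr2:128698956-128802894) encodes a TAM family receptor with which macrophages take up apoptotic cells. Its levels were 7.14, 34.0, 12.2 and 17.4 CPM in saline tumors, against 11.1, 9.81, 21.1 and 13 CPM in mAb-DXd/IMQ tumors. The groups overlapped, the log2 fold change was -0.36 ± 0.41 (SE; 95% interval -1.27 to 0.54; adjusted p = 0.683), and the sign turned without saline tumor 2, to 0.16. Neither of the other TAM receptors passed the thresholds. Axl was at 633 ± 50.1 CPM in saline tumors, against 633 ± 23.1 CPM in mAb-DXd/IMQ tumors (SD, n = 4 each), and Tyro3 had a log2 fold change of 0.35 ± 0.15 (SE; adjusted p = 0.236).

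Trem2 (ENSMUSG00000023992, chr17:48346401-48354147) encodes a lipid-sensing receptor that signals through the adaptor TYROBP. It was measured at 21.3, 77.8, 42.9 and 44.4 CPM in saline tumors and at 61.4, 46.5, 47.0 and 42.2 CPM in mAb-DXd/IMQ tumors. All 4 mAb-DXd/IMQ tumors lay between the lowest and the highest saline tumor. Its log2 fold change was 0.08 ± 0.30 (SE; 95% interval -0.58 to 0.74; adjusted p = 0.918), and the sign turned without saline tumor 1, to -0.16, and without mAb-DXd/IMQ tumor 1, to -0.04.

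Spp1 (ENSMUSG00000029304, chr5:104435118-104441050) is made by many cell types besides macrophages, epithelial tumor cells included. Its levels were 3618, 4529, 3831 and 4613 CPM in saline tumors, against 5422, 4639, 1956 and 3737 CPM in mAb-DXd/IMQ tumors. In contrast to most of the other genes, the mAb-DXd/IMQ tumors were the more widely spread, with the highest and the lowest values of all 8. The log2 fold change was -0.07 ± 0.27 (SE; 95% interval -0.67 to 0.52; adjusted p = 0.917), and it was 0.15 without mAb-DXd/IMQ tumor 3. Of 8 osteopontin receptor genes, integrin subunits and Cd44, none passed the thresholds.

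Nos2 (ENSMUSG00000020826, chr11:78920787-78960254) encodes inducible nitric oxide synthase. Its levels were 237, 30.3, 83.2 and 46.2 CPM in saline tumors, against 48.9, 55.4, 33.4 and 58.4 CPM in mAb-DXd/IMQ tumors. Saline tumor 1 stood far above the rest, saline tumor 2 was the lowest of the 8, and the mAb-DXd/IMQ tumors lay between them. This gave a log2 fold change of -1.01 ± 0.52 (SE; 95% interval -2.15 to 0.12; adjusted p = 0.317), which was -0.12 without saline tumor 1 and -1.32 without saline tumor 2.

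Mrc1 (ENSMUSG00000026712, chr2:14229392-14332057) encodes the macrophage mannose receptor, CD206, and its upstream sequence is the first shown above. Its levels were 104, 360.4, 135 and 189 CPM in saline tumors, against 75.7, 82.8, 72.0 and 75.7 CPM in mAb-DXd/IMQ tumors. Every mAb-DXd/IMQ tumor lay below every saline tumor, and the mAb-DXd/IMQ tumors were nearly equal, with a mean of 76.5 ± 4.52 CPM against 197 ± 114 CPM in saline (SD, n = 4 each). Mrc1 had a log2 fold change of -1.37 ± 0.31 (SE; 95% interval -2.06 to -0.67) with an unadjusted p of 0.00115 and an adjusted p of 0.0574, just outside the FDR threshold. It passed without a filter on low counts (adjusted p = 0.0153), with DESeq2 (0.000507) and without saline tumor 1 (0.0294), and the highest adjusted p over the 20 alternatives was 0.577, from a test against the fold limit. Without saline tumor 2 the log2 fold change was -0.90, and without saline tumor 1 it was -1.58.

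Chil3 (ENSMUSG00000040809, chr3:106147554-106167564), which encodes the chitinase-like protein Ym1, was low in all tumors. The counts were 7, 17, 12 and 29 in saline tumors and 40, 31, 36 and 27 in mAb-DXd/IMQ tumors, or 0.142, 0.384, 0.215 and 0.424 CPM against 0.825, 0.664, 0.786 and 0.759 CPM. Every mAb-DXd/IMQ tumor lay above every saline tumor in CPM, although the exact 95% Poisson intervals of saline tumor 4, 0.284 to 0.609 CPM, and mAb-DXd/IMQ tumor 2, 0.451 to 0.942 CPM, overlapped. The log2 fold change was 1.37 ± 0.43 (SE; 95% interval 0.41 to 2.32), with an unadjusted p of 0.00917 and an adjusted p of 0.127. Of 1440 windows of 100 bases in its transcripts, 78 also occur in Chil4 or Gm6522, and Chil4 had no count in any tumor.

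Retnla (ENSMUSG00000061100, chr16:48842551-48844461), which encodes FIZZ1, did not pass the filter on low counts and was not tested. It had 4, 9, 3 and 5 counts in saline tumors and 0, 0, 0 and 7 counts in mAb-DXd/IMQ tumors. The single mAb-DXd/IMQ tumor with counts was at 0.197 CPM, near the highest saline tumor at 0.203 CPM, and 3 counts in the tumors with none would be 0.0581, 0.0649 and 0.0698 CPM. Whether the groups differed was therefore not tested.

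**Figure D2:**
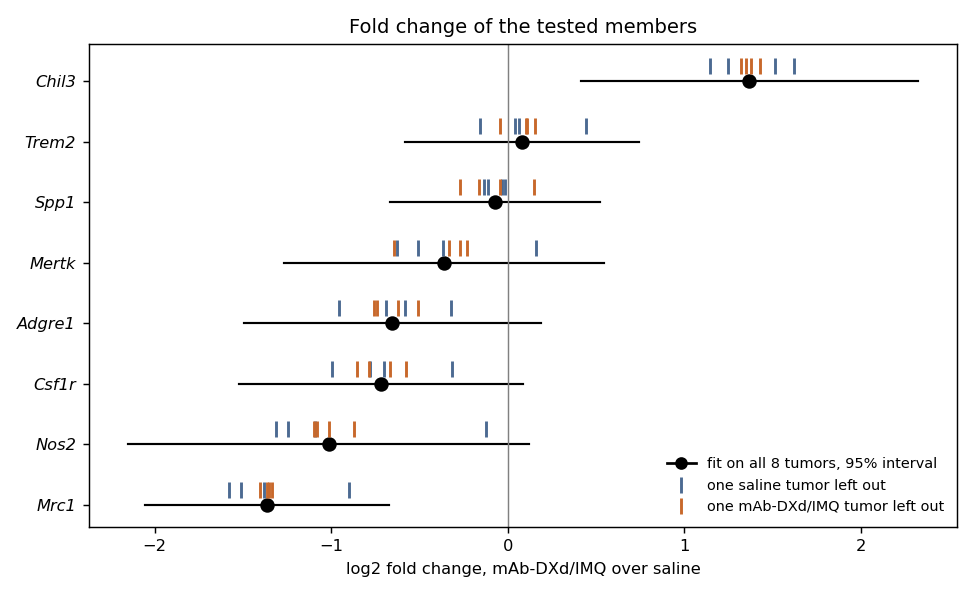
Log2 fold change of the 8 tested genes, mAb-DXd/IMQ over saline, from the edgeR fit on 8 tumors (black point) with its 95% interval (black line), and with a tick for each fit that leaves out 1 saline tumor (blue) or 1 mAb-DXd/IMQ tumor (orange). The intervals of Mrc1 and Chil3 lie on opposite sides of 0, those of the other 6 genes include 0, and the widest shifts come from leaving out a saline tumor for Nos2, Mertk, Mrc1 and Csf1r.

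Of the 8 tested genes, 6 had a log2 fold change below 0, with a median of -0.51 over the 8, beside 47.4% of all tested genes below 0 and a median of 0.02 over all. An unadjusted p under 0.05 was reached by 2 of the 8, Mrc1 and Chil3, beside 18.9% of all tested genes. DESeq2 called 1 of the 8, Mrc1, beside 4.25% of all genes, and limma-voom called 0, beside 0.94%. The same 2 were the genes whose groups did not overlap, 1 lower and 1 higher, beside 13.1% of all genes, 7.1% lower and 5.97% higher. These shares are close enough to the background that the counts do not set the 8 genes apart.

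The saline tumors differed from each other more than the mAb-DXd/IMQ tumors did for 7 of the 8 tested genes, all but Spp1. Over all tested genes the reverse was more common, since only 36.0% had the smaller SD of log2 CPM in mAb-DXd/IMQ tumors. The SD of log2 CPM was 0.78 in saline and 0.08 in mAb-DXd/IMQ tumors for Mrc1, 1.28 and 0.36 for Nos2, 1.03 and 0.37 for Adgre1, and 0.92 and 0.38 for Csf1r. The saline spread had a shared order. Saline tumor 2 had the highest saline level of 6 of the 9 genes (Csf1r, Adgre1, Mertk, Trem2, Mrc1 and Retnla) and the lowest of Nos2. Saline tumor 1 had the lowest saline level of 7 (Csf1r, Adgre1, Mertk, Trem2, Spp1, Mrc1 and Chil3) and the highest of Nos2.

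Relative to Csf1r in the same tumor, some genes kept a narrow range of ratios and others did not. These ratios are descriptions without a test. The log2 ratio of Adgre1 to Csf1r ran from -2.40 to -1.98 over the saline tumors and from -2.18 to -1.98 over the mAb-DXd/IMQ tumors. The log2 ratio of Trem2 to Csf1r was -2.33, -2.68, -2.55 and -2.73 in saline tumors and -1.70, -1.74, -2.24 and -1.54 in mAb-DXd/IMQ tumors, so that every mAb-DXd/IMQ tumor lay above every saline tumor and the means differed by 0.77. Chil3 relative to Csf1r was also higher in every mAb-DXd/IMQ tumor, with means 1.92 apart on the log2 scale. Mrc1 relative to Csf1r overlapped between the groups, from -0.89 to -0.04 in saline and from -1.63 to -0.70 in mAb-DXd/IMQ tumors, with means 0.65 lower in the latter (-0.51 against -1.16). Of the 7 ratios, 2 did not overlap, both higher in mAb-DXd/IMQ tumors. Over all tested genes, 2.83% had a ratio to Csf1r that did not overlap, 2.75% being higher. This share is not matched to macrophage genes, many of which shared the wide saline spread of Csf1r. Trem2 itself had a log2 fold change of 0.08 between groups, against -0.72 for Csf1r. Ratios of other macrophage genes to Csf1r are not given here, so the shift is not shown to be particular to Trem2.

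**Figure D3:**
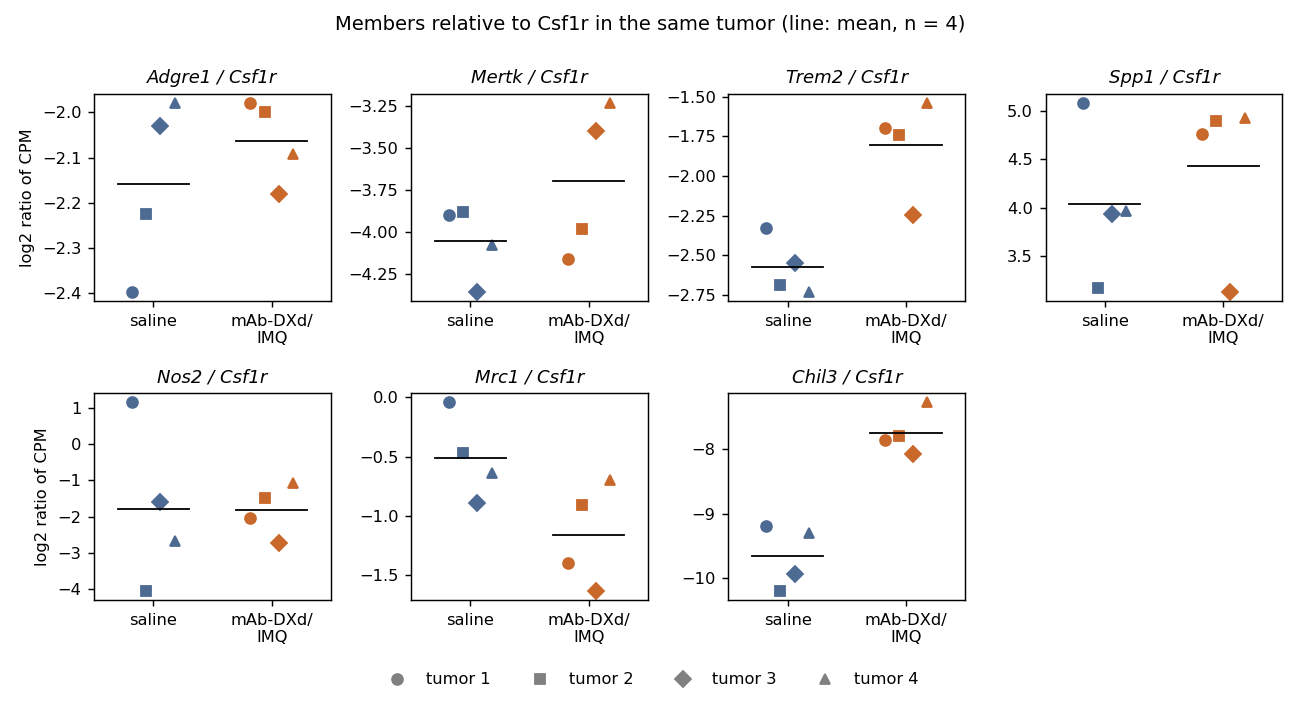
Log2 ratio of the CPM of 7 genes to that of Csf1r in the same tumor, for saline (blue) and mAb-DXd/IMQ (orange) tumors, with marker shapes for tumors 1 to 4 and a black line at the group mean (n = 4). Trem2 and Chil3 relative to Csf1r are higher in every mAb-DXd/IMQ tumor than in any saline tumor, and the other 5 ratios overlap.

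The genes whose levels followed Csf1r and Nos2 most closely were found by the Pearson correlation of log2 CPM after removing each group's mean, over 8 tumors and 10751 candidate genes with a mean of at least 8 CPM. For Csf1r they were Ctsc, Fermt3, Fkbp15, Arl11 and Robo4, with r from 0.995 to 0.997. For Nos2 they included Tnfsf10, Tap1, Gbp5 and Ift172, with r from 0.988 to 0.993. All points share library and depth within a tumor, and the highest of many correlations is given as a description with no p. None of these 9 genes passed the thresholds between groups in edgeR.

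Around these genes, 127 other genes of 9 macrophage pathways were in the table, 121 of them tested. Of the 121, 4 fell in mAb-DXd/IMQ tumors and none rose (3.31% past the thresholds, beside 1.06% of all genes, or 0.519% for genes that were lower), 68.6% had a log2 fold change below 0, and the median was -0.19 against 0.02 for all genes. The 4 were Cd163, Il1b, Egr2 and Csf3r. With the marker lists of other cells added, 6 of 153 tested genes were lower and none higher, whereas DESeq2 called 20 lower and 3 higher, beside 4.25% of all genes, and edgeR without a filter on low counts called 9 lower and 2 higher of 159, beside 1.14% of all genes.

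Of 20 tested macrophage lineage and phagocyte genes, 1 fell and none rose, beside 1.06% of all genes past the thresholds. Of the 20, 17 had a log2 fold change below 0, beside 47.4% of all genes, and the median was -0.23. The one that fell was Cd163, the hemoglobin scavenger receptor of resident and M2-like macrophages. It was measured at 8.43, 11.4, 7.22 and 7.87 CPM in saline tumors and at 2.72, 3.53, 4.02 and 5.23 CPM in mAb-DXd/IMQ tumors. The groups did not overlap, and the log2 fold change was -1.17 ± 0.24 (SE; adjusted p = 0.0450), although the call was lost on leaving out any 1 of the 8 tumors. The Cd163 call was also lost with upper-quartile scaling, scaling by library size only, the gene length trend removed or a replicate block. The most abundant genes of the list did not pass in edgeR. Lyz2, which encodes lysozyme, had a log2 fold change of -0.04 ± 0.51 (SE), and the complement genes C1qa, C1qb and C1qc had -0.08 ± 0.26, -0.24 ± 0.29 and -0.36 ± 0.28.

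Of 19 tested M2-like and interleukin-4 response genes, 1 fell and none rose, beside 1.06% of all genes past the thresholds. Of the 19, 16 had a log2 fold change below 0, beside 47.4% of all genes, and the median was -0.51. Egr2, a transcription factor induced by interleukin-4, went from 26.9 ± 4.16 to 16.6 ± 1.35 CPM (SD, n = 4 each; log2 fold change -0.70 ± 0.14, SE; adjusted p = 0.0427), without overlap. The interleukin-4 receptor gene Il4ra passed the FDR but not the fold limit, at 168 ± 18.6 and 119 ± 4.43 CPM (log2 fold change -0.50 ± 0.11, SE; adjusted p = 0.0497). Tgm2, a transglutaminase gene of the same response, had a log2 fold change of -0.51 ± 0.13 (SE; adjusted p = 0.0748), and Fn1 and Tgfb1 had values of -0.34 ± 0.26 and 0.03 ± 0.14. Leaving out 1 tumor kept the call of Egr2 in 2 of 8 fits, and limma-voom did not make it.

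Of 19 tested M1-like and interferon gamma response genes, 1 fell and none rose, beside 1.06% of all genes past the thresholds. Of the 19, 14 had a log2 fold change below 0, beside 47.4% of all genes, and the median was -0.16. Il1b, which encodes the inflammatory cytokine interleukin-1 beta, was at 135, 110.0, 151 and 177 CPM in saline tumors and at 69.3, 52.2, 76.4 and 52.8 CPM in mAb-DXd/IMQ tumors. All mAb-DXd/IMQ tumors lay below all saline tumors (log2 fold change -1.19 ± 0.17, SE; adjusted p = 0.0201), and the call was kept in 5 of 8 fits that left out 1 tumor and lost without saline tumor 3, saline tumor 4 or mAb-DXd/IMQ tumor 4. The interferon targets Irf1, Cxcl9 and Gbp2 had log2 fold changes of -0.09 ± 0.15, -0.28 ± 0.14 and -0.44 ± 0.28 (SE), none past the thresholds in edgeR. Genes of both polarization lists that passed in edgeR were therefore lower, Egr2 and Il1b alike.

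In the list of CSF1 receptor and GM-CSF signaling, Csf3r alone of 9 genes passed in edgeR, beside 1.06% of all genes. It encodes the receptor for G-CSF, found on neutrophils and monocytes, and went from 35.6 ± 4.64 to 20.5 ± 3.67 CPM (SD, n = 4 each; log2 fold change -0.80 ± 0.16, SE; adjusted p = 0.0402). The call was kept in 1 of 8 fits that left out 1 tumor. It was lost with upper-quartile scaling, scaling by library size only or a replicate block. The ligand gene Csf1 was at 221 ± 24 and 226 ± 48.7 CPM. Ccr2, a chemokine receptor of blood monocytes, had a log2 fold change of -0.74 ± 0.37, Csf2rb of -0.45 ± 0.18 and Csf2ra of -0.11 ± 0.27 (SE), none past the thresholds in edgeR. DESeq2 called 2 genes of this list, 5 of the lineage list, 3 of the M2-like list and 2 of the M1-like list, beside 4.25% of all genes.

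No gene passed in edgeR among 14 genes of TREM2 signaling and lipid-associated macrophages, 10 of TAM receptors and efferocytosis, 8 osteopontin receptors, 10 of arginine uptake and metabolism, and 15 tested paralogs. Their median log2 fold changes were -0.13, 0.01, 0.05, 0.09 and -0.16. An unadjusted p under 0.05 in the edgeR test was reached by 7, 4, 0, 2 and 6 of their genes (18.9% of all tested genes), DESeq2 called 2, 0, 0, 1 and 2 (4.25% of all), and limma-voom called 0 in each (0.94% of all). Marco, Chil4, Chia1 and Retnlb had no count in any tumor. Apoe, a lipid carrier made by macrophages, was at 1513 ± 966 and 1406 ± 383 CPM, and the lysosomal genes Cd63 and Ctsd had log2 fold changes of 0.47 ± 0.14 (SE; adjusted p = 0.107) and 0.02 ± 0.15. Odc1, which makes putrescine from ornithine, had a log2 fold change of 0.24 ± 0.12 (SE; adjusted p = 0.290). Retnlg, a paralog of Retnla, had -1.78 ± 0.72 (SE; adjusted p = 0.216).

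**Figure D4:**
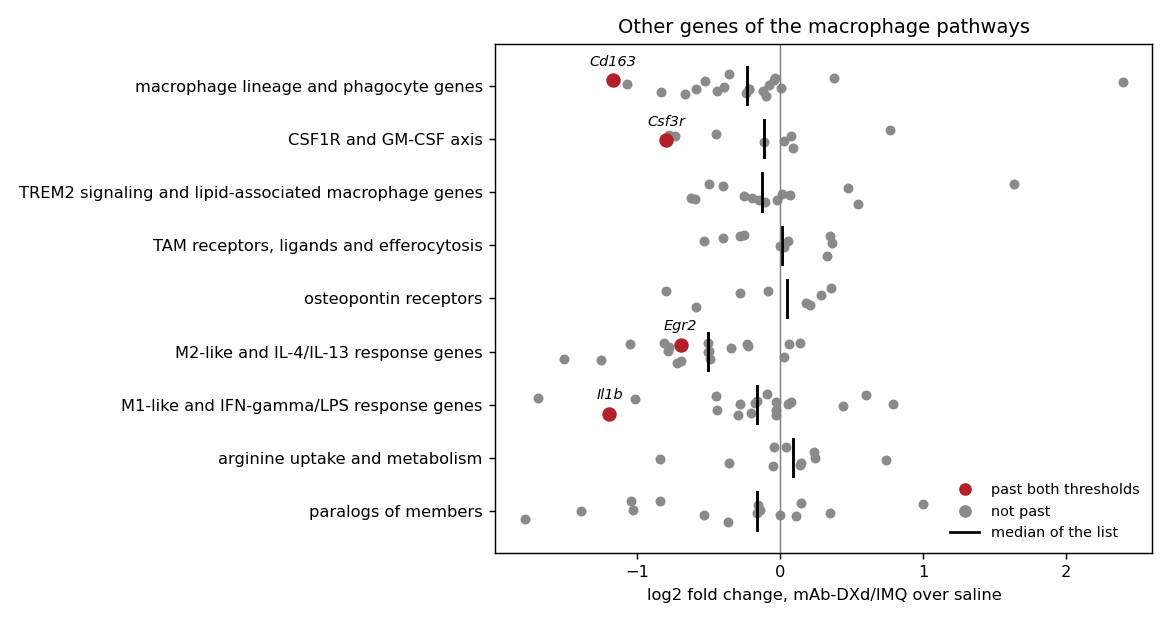
Log2 fold change, mAb-DXd/IMQ over saline, of every tested gene in 9 lists of macrophage pathways (points, with vertical jitter only for legibility), the median of each list (black line) and the 4 genes past both thresholds (red, named). All 4 lie below 0, and the medians run from -0.51 for the M2-like list to 0.09 for arginine metabolism.

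Among markers of other myeloid and lymphoid cells, Cd4, Cd8a and Csf3r passed the thresholds in edgeR, beside 1.06% of all genes. Of 4 T cell markers, Cd4 and Cd8a fell (log2 fold changes -1.91 ± 0.25 and -1.22 ± 0.17, SE; adjusted p = 0.0201 for each), calls kept in 5 of 8 fits that left out 1 tumor and lost without saline tumor 3, saline tumor 4 or mAb-DXd/IMQ tumor 4 and with a replicate block. The summed level of the 4 was 42.6 to 64.4 CPM in saline and 17.3 to 29.8 CPM in mAb-DXd/IMQ tumors. Cd4 is also expressed by some macrophages. Of 5 tested neutrophil markers, Csf3r fell, and the summed list was at 85.3 to 225 CPM in saline and 34.5 to 70.04 CPM in mAb-DXd/IMQ tumors, without overlap. The sums overlapped for 5 monocyte markers (109 to 319.5 and 172 to 236 CPM) and 5 dendritic cell markers (18.7 to 35.3 and 16.3 to 20.1 CPM), sums in which Ccr2 and Zbtb46 weigh most. Among the monocyte markers, Ly6c2, Plac8 and Vcan had log2 fold changes of 0.79 ± 0.30, 0.64 ± 0.23 and 0.39 ± 0.34 (SE). The median over the 5 was 0.39, with 3 above 0, and none passed the thresholds in edgeR. DESeq2 called 1 monocyte, 3 neutrophil, 4 T cell and 0 dendritic cell markers, beside 4.25% of all genes. Ly6c2, chosen after its values were seen, was higher in every mAb-DXd/IMQ tumor than in any saline tumor. All 5 dendritic cell markers had a log2 fold change below 0, with a median of -1.03, and 3 of them (Flt3, Xcr1 and Clec9a, at -1.03 ± 0.41, -1.17 ± 0.49 and -1.53 ± 0.58, SE) had an unadjusted p under 0.05, beside 18.9% of all tested genes, but none passed the thresholds. Eosinophil, adipocyte, fibroblast, endothelial and muscle markers had no gene past the thresholds in edgeR or DESeq2. Their summed levels overlapped as well, at up to 1.21 CPM for eosinophils and 2.86 CPM for adipocytes, 1592 to 3667 and 1537 to 4077 CPM for fibroblasts, 60.4 to 154 and 117 to 138 CPM for endothelium, and 28.5 to 333 and 44.0 to 245 CPM for muscle. Col1a1, a collagen gene, made most of the fibroblast sum, whereas Pdgfra, a growth factor receptor gene of fibroblasts, was at 86.4 to 106 CPM in saline and 61.2 to 75.7 CPM in mAb-DXd/IMQ tumors, without overlap (log2 fold change -0.48 ± 0.12, SE; adjusted p = 0.0679). The part of these cells in the values of Mrc1, Cd163, Il1b and Egr2 was not tested.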

How the data were processed

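RNA-seq was performed on 8 tumors by Novogene with poly-A selection. The table the authors deposited holds unnormalized counts of reads for each gene in each tumor, with the length of the gene model. The submitters' processing notes name HISAT2, HISAT, TopHat2 and mm39 without roles, but 98.3% of matched genes had the start and end of GRCm38, so coordinates are given in that build. The counting program and strandedness are not given in the sources used here.

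Genes were kept by filterByExpr (minimum count 10, minimum total 15) and compared with edgeR 4.0.16 (R 4.3.3) by the quasi-likelihood F-test after TMM normalization, with factors from 0.939 to 1.07, without covariates. Standard errors and intervals were derived from the F statistic. CPM used TMM-scaled totals, and log2 CPM a prior count of 2. The paper's methods name edgeR and the thresholds. limma 3.58.1 and DESeq2 1.42.0 served as alternatives.

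The members and lists were chosen with earlier results of these data known. Of 10 members, 1 is not reported here, and neither are the results that need it or a few other named genes. Named genes were the members, 5 genes most like each of Csf1r and Nos2, fixed paralogs, and in each list those past the thresholds with up to 4 of the most abundant others. Genes from marker lists were named mostly by their sums. Upstream sequences came from RefSeq.

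No libraries were duplicates. On simulated counts for this comparison, run on 18511 genes, the test recovered 70% of 100 genes changed by 1 on the log2 scale and 97% of 100 changed by 2, and 3.47% of 173 calls were false.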

Additional observations from a re-analysis of the deposited data

Results flagged for a closer look

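Of the members, Retnla alone had a tumor that stood apart from the other 3 of its group by Dixon's ratio, the gap to the nearest tumor divided by the group's range, at its 95% critical value. This was mAb-DXd/IMQ tumor 4 with a ratio of 1, since the other 3 had no count and it had 7. Over 158 groups of 4 tumors checked, 10 were past it, and chance gives about 1 in 20, or 7.9. The other 9 were named genes that are no members. In saline tumor 2, Csf1 was high (ratio 0.906, log2 CPM 8.01 against 7.70 to 7.73), Epcam low (0.908, 7.59 against 8.69 to 8.80) and Cidec low (0.865). Saline tumor 2 is the tumor with the highest saline level of 6 of the 9 members. In mAb-DXd/IMQ tumor 3, Csf2rb (0.983, log2 CPM 6.67 against 6.31 in the other 3), Itgav (0.844) and Tyro3 (0.885) were high. In mAb-DXd/IMQ tumor 1, Csf3r (0.891, log2 CPM 3.91 against 4.45 to 4.52) and Clec9a (0.847) were low. In mAb-DXd/IMQ tumor 4, Dcn was low (0.896).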

How the results depend on the processing

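Mrc1 was the single member past the thresholds in any setting: 1 member passed with no filter, with DESeq2 and without saline tumor 1, and from 0 to 1 when each tumor was left out. All 20 alternatives kept the sign for Csf1r, Adgre1, Nos2 and Mrc1, and all 19 that could be run for Chil3, which did not reach 1 CPM in 4 tumors. Signs turned for Mertk (0.16 without saline tumor 2), Trem2 (-0.16 without saline tumor 1, -0.04 without mAb-DXd/IMQ tumor 1) and Spp1 (0.15 without mAb-DXd/IMQ tumor 3). Over all fits that left out 1 tumor, Mertk ran from -0.65 to 0.16, Trem2 from -0.16 to 0.44 and Spp1 from -0.27 to 0.15. The causes were not tested.

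Over all genes, 358 passed with no filter, 787 with DESeq2, 7 with a test against the fold limit and 122 with the gene length trend removed, and 10 to 203 when each tumor was left out. Of the list genes, 6 passed, against 11 with no filter, 23 with DESeq2, 0 with a test against the fold limit and 0 to 7 when each tumor was left out, with 0 without saline tumor 3, saline tumor 4 or mAb-DXd/IMQ tumor 4. With a replicate block 14 genes and 0 list genes passed, the same counts as with the length trend also removed. Correlations of same-numbered tumors were -0.170, -0.055, 0.079 and -0.067, so the numbers do not pair tumors. Counts of Chil3 and Retnla were low in every tumor, and the effect of depth on them was not tested.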

Other observations

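A few macrophage genes had values in the opposite direction to Mrc1 and Cd163, and they were chosen after their values were seen. Vsig4, a complement receptor of resident macrophages, was at 0.041, 0.812, 0.054 and 0.366 CPM in saline tumors and at 1.86, 1.56, 1.68 and 1.55 CPM in mAb-DXd/IMQ tumors, without overlap (edgeR log2 fold change 2.40 ± 0.72, SE; adjusted p = 0.111). Gpnmb, a glycoprotein of lipid-laden macrophages that other cells also make, was at 3.79, 1.06, 2.76 and 2.22 CPM in saline tumors and at 3.98, 8.22, 11.3 and 7.22 CPM in mAb-DXd/IMQ tumors (1.64 ± 0.40, SE; adjusted p = 0.0647). Ccl2, which draws monocytes into tissue, had 17.1 ± 3.60 and 29.2 ± 7.24 CPM (SD, n = 4 each; adjusted p = 0.0748). None of the 3 passed the thresholds in edgeR with the filter on low counts. DESeq2 called 3 list genes higher, and which ones is not given here.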
